A study of Mus musculus with 24 samples.

Results

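The comparison described here is that of mouse striatum without Tyrobp (TyrobpKO, 6 libraries) against wild-type striatum (WT, 6 libraries), 12 of the 24 libraries of the series. Libraries were chosen by their genotype label alone. The other 12 libraries were from animals labelled heterozygous for the Q175 allele, an expanded CAG repeat knocked into the huntingtin gene. These animals were either with Tyrobp (Q175, 6 libraries) or without it (Q175_TyrobpKO, 6 libraries). Each genotype had 3 males, replicates 1 to 3, and 3 females, replicates 4 to 6. All animals were labelled C57BL/6, and no age was given. The tissue was frozen striatum from 1 hemisphere of each animal. All animals with the deletion had an animal number with the prefix T. In WT, 5 animals had the prefix WT and replicate 3 had the prefix Q that Q175 animals carried. The labels do not say what these prefixes mark, and the prefix T and the deletion cannot be told apart. The sources used here do not state the strain in which the deletion was made or how often it was backcrossed, so the effect of the deletion and that of DNA linked to it on chromosome 7 cannot be told apart either.

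Tyrobp encodes DAP12, a small transmembrane adaptor of microglia and other myeloid cells. It has almost no extracellular part of its own. It pairs with receptors such as Trem2, and its cytoplasmic tyrosine motif (ITAM) recruits the kinase Syk when a receptor is engaged. In brain disease models the Trem2 and Tyrobp pair is known for its role in the shift of microglia from a resting to a disease-associated state. The gene lies on chromosome 7 in a gene-dense stretch that also holds clusters of zinc finger, kallikrein and Siglec genes.

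Total counts of the 24 libraries were 25482686 to 34626720. Of the 54532 genes in the table, 19667 had enough counts to be tested. Levels are given as CPM (counts scaled to a common library size by TMM), and "called" means an adjusted p (Benjamini-Hochberg) below 0.05 in the quasi-likelihood test of edgeR. Markers of striatal neurons were present in WT, among them the dopamine receptor Drd1 at 297.1 CPM and the enkephalin precursor Penk at 1086 CPM, as were microglial markers such as Cx3cr1 at 58.8 CPM. Markers of cortex differed between libraries, and among the 12 libraries compared they were highest in the 3 TyrobpKO males and WT replicate 5. Their values are given beside the results that they move with.

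Tyrobp was nearly absent from the libraries labelled as deleted. Its lowest, median and highest levels were 6.56, 7.74 and 9.89 CPM in WT and 0.214, 0.336 and 0.448 CPM in TyrobpKO. Every TyrobpKO library was far below every WT library, and the mean was 4.33% of that in WT. The log2 fold change was -4.52 ± 0.18 (SE; adjusted p 5.93e-16), and the 2-sided exact permutation p was 0.00216, the smallest that 6 against 6 libraries can give. Both groups also differed in the other 12 libraries, with medians of 9.15 CPM in Q175 and 0.252 CPM in Q175_TyrobpKO. Hcst, which encodes the related adaptor DAP10 and lies beside Tyrobp, had 33 reads over all of WT and 42 over all of TyrobpKO and was too low to be tested.

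Few genes differed between TyrobpKO and WT, and most of those called lay near Tyrobp on chromosome 7. Including Tyrobp, 23 of 19667 genes (0.117%) were called, 9 higher (0.0458%) and 14 lower (0.0712%) in TyrobpKO. Of the 22 genes other than Tyrobp, 20 lay on chromosome 7 within 15 Mb of the start of Tyrobp. That window held 464 tested genes, so 4.31% of them were called, 8 higher (1.72%) and 12 lower (2.59%). In 21 of the 22 genes the 6 libraries of one group lay wholly above the 6 of the other, which held for 70 of all tested genes (0.356%) and 23 of those in the window (4.96%; 9 higher, 1.94%, and 14 lower, 3.02%). On chromosome 7 beyond the window, edgeR called 0 of 1104 genes (0%), of which 82 had an unadjusted p under 0.05. DESeq2 also called 0 there. On all other chromosomes 2 of 18098 genes (0.0111%) were called: Lag3 and the pseudogene Pdcd5-ps. The share of genes with an unadjusted p under 0.001 was 5.82% within the window, 0.0906% on chromosome 7 beyond it and 0.0718% off chromosome 7. The median log2 fold change was close to 0 in all 3 classes, at 0.000669, 0.00927 and 0.000468.

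**Figure D1:**
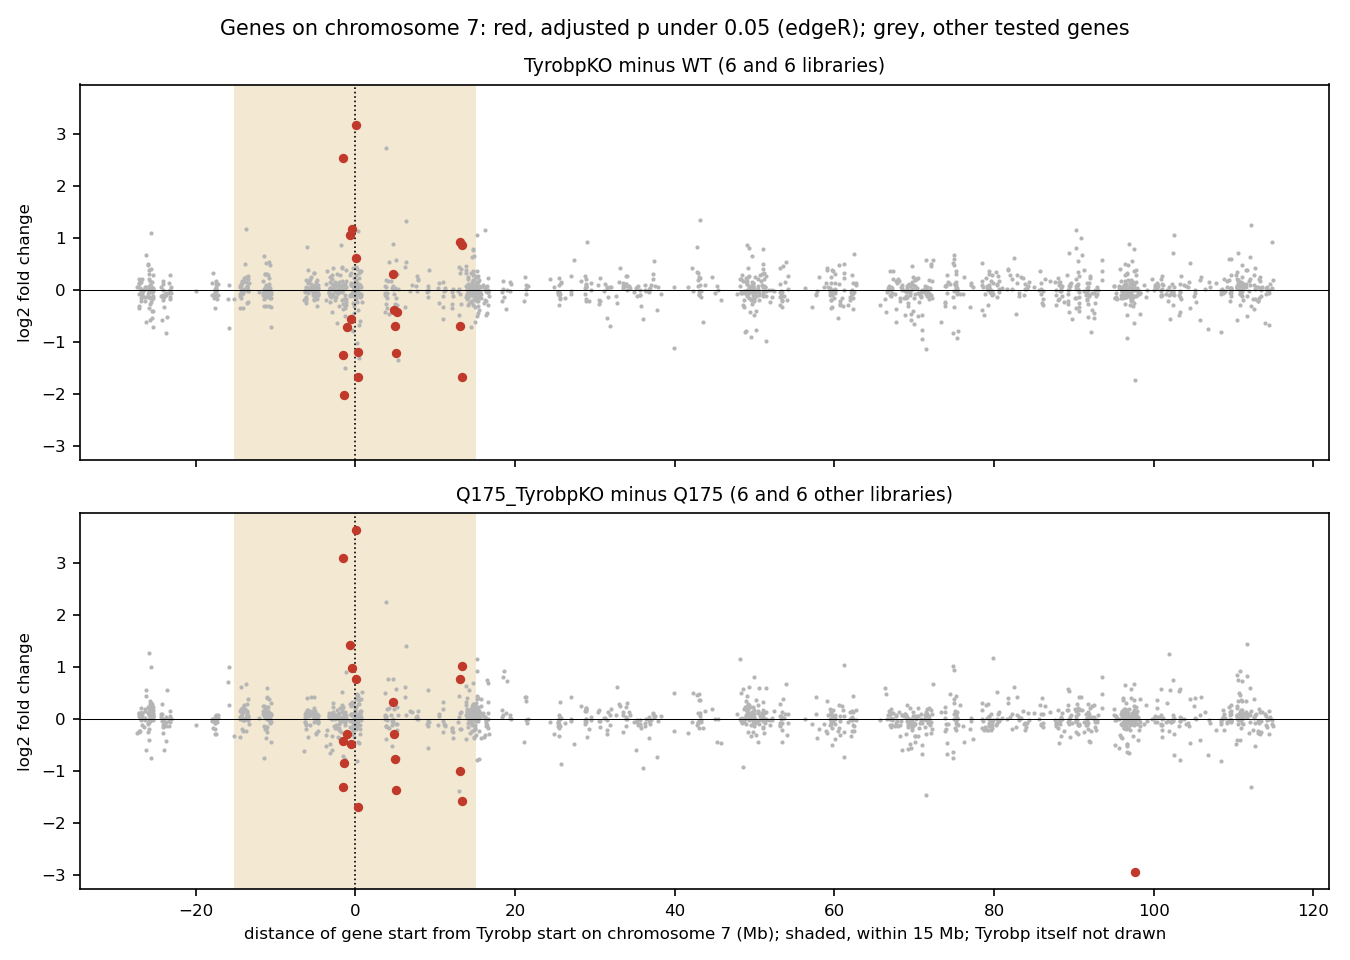
Log2 fold change of each tested gene on chromosome 7 (y axis) against the distance of its start from that of Tyrobp in Mb (x axis), for TyrobpKO minus WT (top) and Q175_TyrobpKO minus Q175 (bottom), with genes of adjusted p under 0.05 in red. The 20 red genes of the top panel lie from -1.58 to 13.41 Mb, in 3 groups, and the same stretches hold red genes in the bottom panel. The bottom panel has 1 further red gene between 95 and 100 Mb.

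The 20 genes near Tyrobp fell into 3 groups separated by more than 3 Mb. Each group was drawn from its first to its last called gene, which raises the share called within it. In fixed bins by distance from Tyrobp, 5.22% were called from -5 to 0 Mb and 9.72% from 0 to 5 Mb. From 5 to 10 Mb it was 8%, and from 10 to 15 Mb 4.17%. From -15 to -10 Mb and from -10 to -5 Mb it was 0%. Coordinates are those of the deposited table, whose gene positions match the mouse build GRCm38. The first group ran over the starts of chromosome 7, 28833854 to 30763756, on both sides of Tyrobp, and 11 of its 77 tested genes (14.3%) were called. They were Lgals4, Gm10648, Ryr1, Sipa1l3, Gm44954, Zfp420, Zfp14, Arhgap33os, Hspb6, Sbsn and Dmkn. The second group (35200027 to 35641982) had 5 called of 11 tested genes (45.5%): Lrp3, Gpatch1, Cep89, Nudt19 and Pdcd5. The last (43524216 to 43824499) had 4 called of 7 (57.1%): Cd33, Zfp658, Klk8 and Klk6. Between the first and second groups lay 41 tested genes and between the second and the last another 40. None of these was called, which follows from how the groups were drawn. All 3 groups held both higher and lower genes, 5 and 6 in the first, 1 and 4 in the second and 2 and 2 in the third.

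Of the 4 tested genes next to Tyrobp on each side, chosen by position, 0 of 8 were called, beside 4.31% of the window, so that a count this small says little. An unadjusted p under 0.05 was found for 4 of them. Alkbh6, a member of the AlkB family 105 kb away, had 17.3 ± 0.935 CPM in WT and 13.9 ± 1.16 CPM in TyrobpKO (SD, n = 6), without overlap, and was not called (-0.31 ± 0.08, adjusted p 0.448). The inhibitor of NF-kB Nfkbid, 8 kb away, differed by 0.10 ± 0.14 on the log2 scale (adjusted p 0.89). Kirrel2, 34 kb away, which encodes a cell adhesion protein of the nephrin family, went from 8.37 ± 1.04 CPM in WT to 11.45 ± 1.31 CPM in TyrobpKO (SD, n = 6) and was just outside the threshold, at 0.45 ± 0.10 (adjusted p 0.117). The last called gene by p was Hspb6 (adjusted p 0.0455), and the first one not called was Ech1 at -1.59 Mb, an enzyme of fatty acid oxidation (-0.37 ± 0.08, adjusted p 0.056). Zinc finger names were common near Tyrobp, and 3 of 53 tested were called, beside 17 of the 411 other genes there.

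In the group around Tyrobp, the 5 genes of smallest adjusted p were Ryr1, Sipa1l3 and Dmkn, which fell, and Zfp14 and Arhgap33os, which rose. Ryr1 (ENSMUSG00000030592; 29003344 to 29125179, minus strand) encodes a channel that releases calcium from the endoplasmic reticulum. Its lowest, median and highest levels were 117.5, 151.8 and 163.3 CPM in WT and 31.3, 34.15 and 48.4 CPM in TyrobpKO. The lowest WT library was thus above the highest TyrobpKO library, and the log2 fold change was -2.01 ± 0.14 (adjusted p 6.64e-09). Sipa1l3 (ENSMUSG00000030583; 29320372 to 29518641, minus strand), a GTPase-activating protein related to those acting on Rap, had 71.9, 85.3 and 95.8 CPM in WT and 49.4, 51.0 and 56.4 CPM in TyrobpKO. The groups did not overlap (-0.71 ± 0.06, adjusted p 6.64e-09).

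Zfp14 (ENSMUSG00000053985; 30036359 to 30051380, minus strand), a zinc finger gene 0.377 Mb from Tyrobp, had 12.8, 15.01 and 17.0 CPM in WT and 27.9, 34.2 and 38.55 CPM in TyrobpKO. Each TyrobpKO library exceeded each WT library, by 1.17 ± 0.09 on the log2 scale in the fit (adjusted p 1.34e-09). Zfp420, another zinc finger gene of this group, moved the other way, from a median of 20.3 CPM in WT to 14.2 CPM in TyrobpKO (-0.55 ± 0.08, adjusted p 0.000343). Neighbouring zinc finger genes thus changed in opposite directions. The antisense transcript Arhgap33os had 43 reads over all of WT and 395 over all of TyrobpKO, with a highest WT library of 0.320 CPM and a lowest TyrobpKO library of 1.78 CPM (3.17 ± 0.29, adjusted p 7.39e-08).

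Dmkn and Sbsn, adjacent genes that encode secreted proteins first known from the epidermis, both fell. Dmkn had a median of 12.2 CPM and a highest level of 13.5 CPM in WT, and 2.71 to 5.60 CPM in TyrobpKO, with no overlap (-1.67 ± 0.15, adjusted p 5.75e-08). Sbsn had 6.83 to 12.8 CPM in WT and 2.86 to 6.42 CPM in TyrobpKO (-1.18 ± 0.18, adjusted p 0.000872). Hspb6, a small heat shock protein, had 2.67 to 3.92 CPM in WT and 4.51 to 6.98 CPM in TyrobpKO (0.62 ± 0.13, adjusted p 0.0455). These groups did not overlap. Hspb6 overlaps other annotated genes, as do Ryr1, Lrp3, Nudt19, Gpatch1, Sbsn, Klk8, Gm10648 and Pdcd5-ps, and the sources used here do not say whether reads were counted by strand. Reads of these genes, and of the antisense gene Arhgap33os, are uncertain to that extent, and 0 of the overlapping partners that were tested were called.

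The remaining called genes around Tyrobp had few reads. Lgals4, which encodes the carbohydrate-binding protein galectin-4, fell from a median of 2.33 to 1.08 CPM (-1.24 ± 0.24, adjusted p 0.0183). The antisense transcript Gm10648 had 27 reads over all of WT and 158 over all of TyrobpKO (2.53 ± 0.49, adjusted p 0.0198). The processed pseudogene Gm44954 rose from a median of 1.13 to 2.23 CPM (1.05 ± 0.20, adjusted p 0.0133). These calls were lost in part when 1 library was left out, while the log2 fold changes stayed at 0.93 to 1.15 for Gm44954, -1.36 to -1.09 for Lgals4 and 2.32 to 2.69 for Gm10648. Without 1 library the adjusted p rose to as much as 0.0846 for Gm44954 (lost without WT replicate 1 or 3 or TyrobpKO replicate 5) and 0.0804 for Lgals4 (WT replicate 1 or 6 or TyrobpKO replicate 2, 3 or 5). For Gm10648 it rose to 0.0804 (WT replicate 1, 5 or 6 or TyrobpKO replicate 4, 5 or 6), and for Hspb6 to 0.261, with the call lost without any 1 library other than WT replicate 5 and TyrobpKO replicate 4.

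Nudt19 had the smallest adjusted p of all genes other than Tyrobp. It encodes a hydrolase that splits coenzyme A (ENSMUSG00000034875; 35547185 to 35556304, minus strand), 5.133 Mb from Tyrobp. Its lowest, median and highest levels were 41.5, 44.6 and 48.4 CPM in WT and 17.0, 19.5 and 21.1 CPM in TyrobpKO. The spread within each group was small beside the gap (-1.21 ± 0.07, adjusted p 7.09e-12). Cep89, a centrosome and cilium gene in the same group, fell from a median of 18.0 to 11.7 CPM (-0.68 ± 0.08, adjusted p 5.58e-06). Gpatch1, a splicing-related gene, fell from 27.3 to 21.5 CPM (-0.38 ± 0.06, adjusted p 0.000985), and the receptor gene Lrp3 rose from 62.7 to 77.3 CPM (0.31 ± 0.05, adjusted p 0.003). In none of these 3 did the groups overlap.

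Pdcd5 and Pdcd5-ps need to be read together, because their sequences are the same. Pdcd5 (ENSMUSG00000030417; programmed cell death 5) lies on chromosome 7, 35641982 to 35647521, and Pdcd5-ps (ENSMUSG00000102824) is an intronless copy on chromosome 1, 189277443 to 189277823, inside the span of Kcnk2. Over the 381 coding bases of Pdcd5, the 2 GENCODE M21 transcripts were identical at 381 bases (100%), across 5 exon junctions of Pdcd5. The stretch of coding bases 107 to 226, present in both, is shown because no read within it can be assigned by its bases alone, with capitals for the last base of 1 exon of Pdcd5 and the first of the next.
Pdcd5 and Pdcd5-ps: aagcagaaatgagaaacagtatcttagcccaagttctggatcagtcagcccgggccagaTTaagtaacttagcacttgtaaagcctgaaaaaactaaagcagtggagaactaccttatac
Reads placed on Pdcd5 fell, with 16.2, 20.3 and 23.1 CPM in WT and 12.5, 15.01 and 16.6 CPM in TyrobpKO (-0.42 ± 0.08, adjusted p 0.0287). This was the only called gene whose groups overlapped, and the call was lost without any 1 of 8 libraries (WT replicates 1, 3, 5 and 6, TyrobpKO replicates 1, 2, 4 and 6; adjusted p up to 0.102). Reads placed on Pdcd5-ps rose, with 0.419, 0.494 and 0.565 CPM in WT and 1.25, 2.08 and 3.16 CPM in TyrobpKO (2.17 ± 0.23, adjusted p 1.52e-06). The pseudogene took 1.84% to 2.97% of the reads of both genes in WT libraries and 9.07% to 17.3% in TyrobpKO libraries, without overlap. How the authors' counting treated reads with several matches is not given in the sources used here, so Pdcd5-ps is an uncertain member of the genes called off chromosome 7. Summed over both genes, WT libraries had 16.7 to 23.5 CPM and TyrobpKO libraries 13.8 to 19.7 CPM.

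The group farthest from Tyrobp held Cd33, the called gene there that is best known from microglia. Cd33 (ENSMUSG00000004609; 43524216 to 43544428, minus strand) encodes an inhibitory Siglec, a receptor for sialic acid. Its lowest, median and highest levels were 10.97, 11.96 and 14.98 CPM in WT and 6.54, 8.25 and 8.55 CPM in TyrobpKO. The groups did not overlap (-0.69 ± 0.10, adjusted p 0.000343). Its neighbour Zfp658, a zinc finger gene, rose from a median of 8.48 to 16.1 CPM (0.92 ± 0.11, adjusted p 1.2e-05). The secreted serine proteases Klk6 and Klk8 moved in opposite directions. Klk6, known from oligodendrocytes, rose from a median of 11.4 to 20.7 CPM (0.87 ± 0.15, adjusted p 0.0098), and Klk8, or neuropsin, fell from 1.44 to 0.357 CPM (-1.66 ± 0.29, adjusted p 0.00484). The calls of Klk8 and of Sbsn were lost when only the 12 libraries were fitted, in females alone and without the 4 libraries highest in cortex markers.

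**Figure D2:**
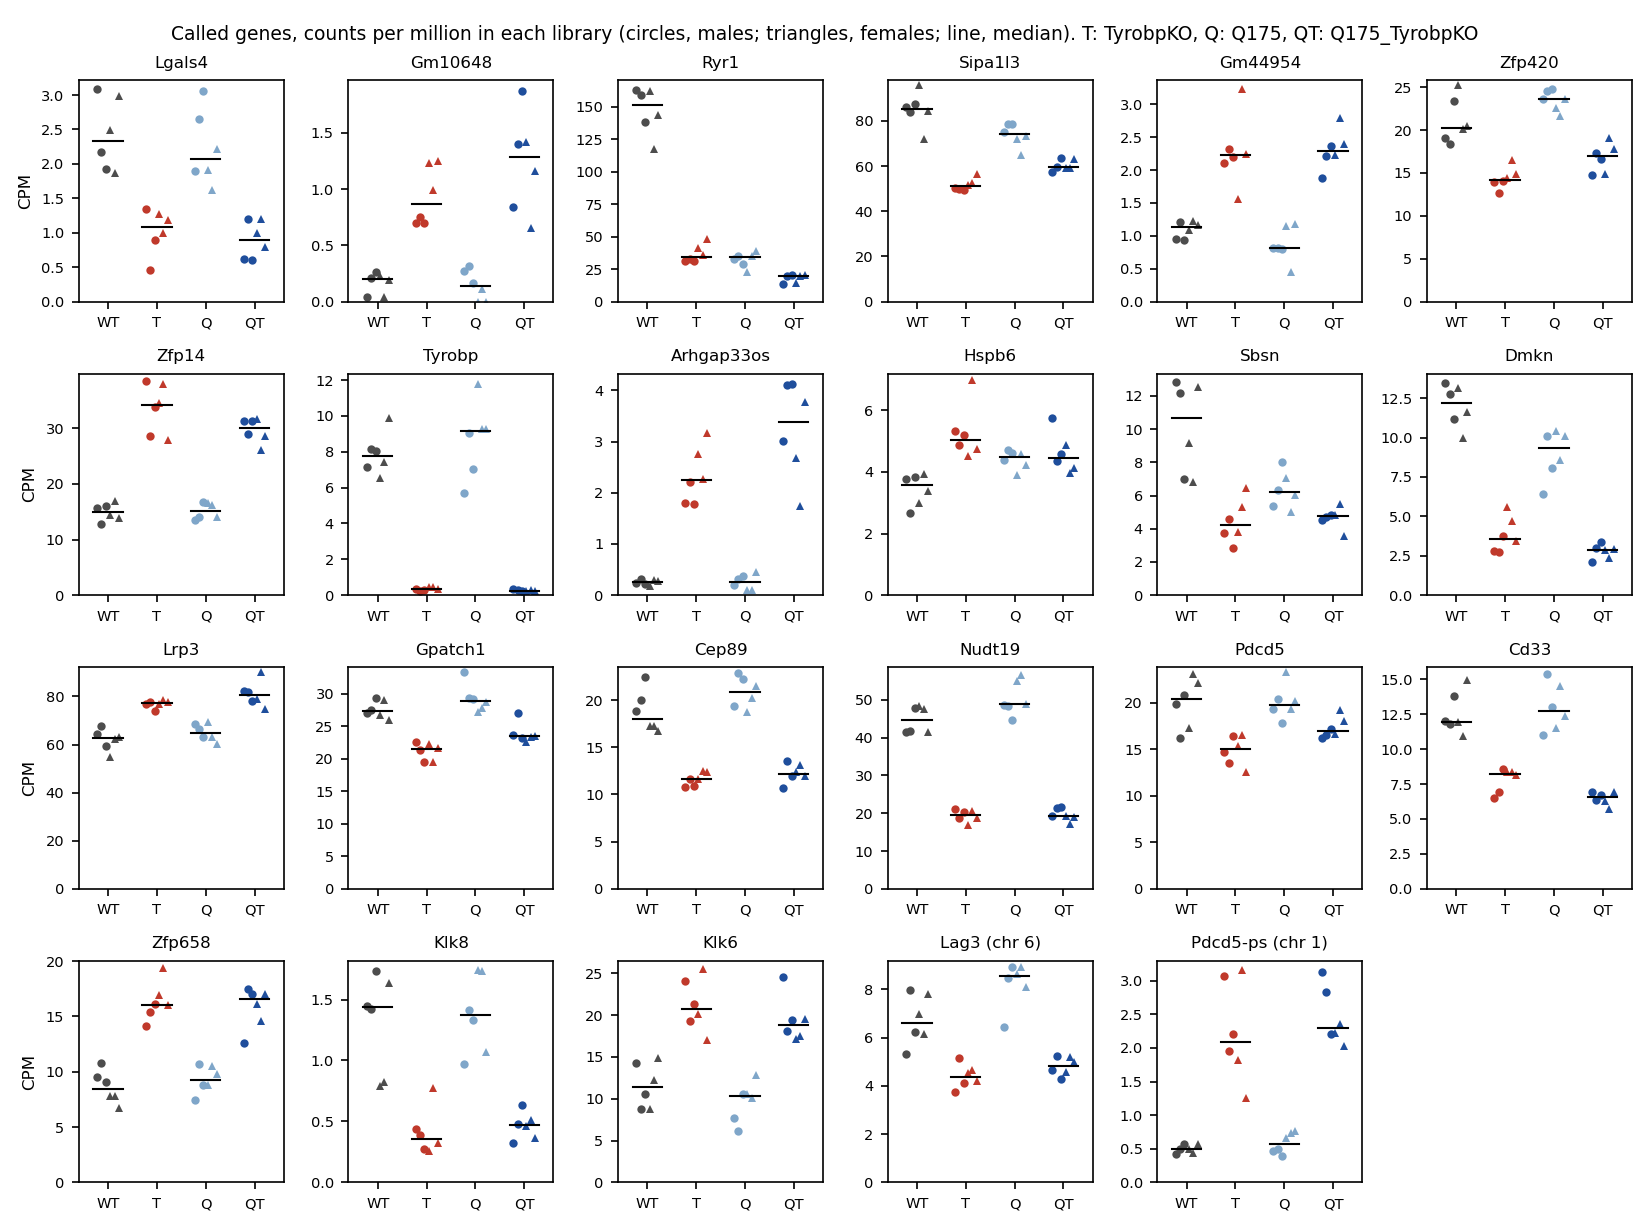
CPM in each library (y axis, from 0) for the 23 called genes in the 4 genotypes (x axis; T, TyrobpKO; Q, Q175; QT, Q175_TyrobpKO), with males as circles, females as triangles and medians as lines. In all panels but that of Pdcd5 the 6 TyrobpKO points lie wholly above or wholly below the 6 WT points.

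Outside chromosome 7, Lag3 was the called gene that did not share its sequence with a gene near Tyrobp. Lag3 (ENSMUSG00000030124; chromosome 6, 124904361 to 124911705) encodes an inhibitory receptor that binds MHC class II and is expressed by lymphocytes and by activated microglia. Its lowest, median and highest levels were 5.33, 6.59 and 7.96 CPM in WT and 3.74, 4.38 and 5.13 CPM in TyrobpKO. The ranges did not overlap, and the log2 fold change was -0.62 ± 0.11 (adjusted p 0.0098). The fall was of like size in males (-0.59 ± 0.17) and females (-0.64 ± 0.17). Lag3 stayed called without any 1 library (adjusted p 0.004 to 0.0446), but not when only the 12 libraries compared were fitted (adjusted p 0.118), nor without the 4 libraries highest in cortex markers (0.27, at -0.68).

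Of the genes off chromosome 7 that came next by p, none was called by edgeR. Themis2, a signalling protein of B cells and macrophages, had 1.32 to 1.80 CPM in WT and 0.642 to 1.23 CPM in TyrobpKO (-0.90 ± 0.20, adjusted p 0.109). Pgf, or placental growth factor, had 0.324 to 1.07 CPM in WT and 1.08 to 2.42 CPM in TyrobpKO (1.05 ± 0.25, adjusted p 0.163). Neither pair of ranges overlapped, and DESeq2 called both genes. Without TyrobpKO replicate 4 edgeR also called Themis2 (adjusted p 0.0464), and without TyrobpKO replicate 6 it called Ano4 (adjusted p 0.0475). The next higher genes were the sodium-proton exchanger Slc9a9 (0.41), the channel family member Ano4 (0.33) and the centromere gene Hjurp (0.27). The next lower ones were Bmp2 (-0.53), C230014O12Rik (-0.72) and Ndrg4 (-0.21). Their adjusted p values were 0.262 to 0.428. On chromosome 7 beyond the window the 5 genes of smallest p were the clock gene Arntl (-0.46), Wdr73 (0.22), Gm36737 (-0.56), Ubfd1 (-0.18) and Gm10603 (-0.64), with adjusted p values of 0.407 to 0.749.

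The 12 libraries with the Q175 allele gave the same deletion in other animals and shared no library with this comparison. There, 31 genes (0.158%) were called, 19 of them near Tyrobp (4.09% of that window; 8 higher, 1.72%, and 11 lower, 2.37%). Off chromosome 7 there were 10 (0.0553%), 9 of them lower (0.0497%). On chromosome 7 beyond the window 1 of 1104 genes (0.0906%) was called, and it was lower. All 22 genes called in TyrobpKO against WT other than Tyrobp had the same sign in Q175_TyrobpKO against Q175, and 19 of them were called. The exceptions were Sbsn (-0.44 ± 0.18, adjusted p 0.811), Pdcd5 (-0.21 ± 0.08, adjusted p 0.809) and Hspb6 (0.07 ± 0.13, adjusted p 0.94). Nudt19 differed by -1.36 ± 0.07 there, Cd33 by -0.997 ± 0.10 and Lag3 by -0.77 ± 0.11. Pdcd5-ps again took a larger share of the reads of both copies, at 10.1% to 16.2% in Q175_TyrobpKO and 2.2% to 3.68% in Q175.

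Among the called genes, Ryr1 and Sipa1l3 had the smallest p for a difference between both backgrounds. Ryr1 was already at 22.8 to 39.1 CPM in Q175 (31.3 to 48.4 CPM in TyrobpKO) and at 13.2 to 20.4 CPM in Q175_TyrobpKO. Its difference was -0.85 ± 0.14 there, and the interaction with the Q175 allele was 1.16 ± 0.20 (unadjusted p 6.27e-06, adjusted p 0.123). Sipa1l3 had 65.0 to 78.5 CPM in Q175 and 57.4 to 63.4 CPM in Q175_TyrobpKO, with an interaction of 0.42 ± 0.08 (unadjusted p 1.93e-05, adjusted p 0.19). Over all genes, edgeR called 0 of 19667 (0%) for the interaction, with 707 at an unadjusted p under 0.05, and DESeq2 called 2. Whether the effect of the deletion depended on the Q175 allele was thus not shown for any single gene by edgeR.

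**Figure D3:**
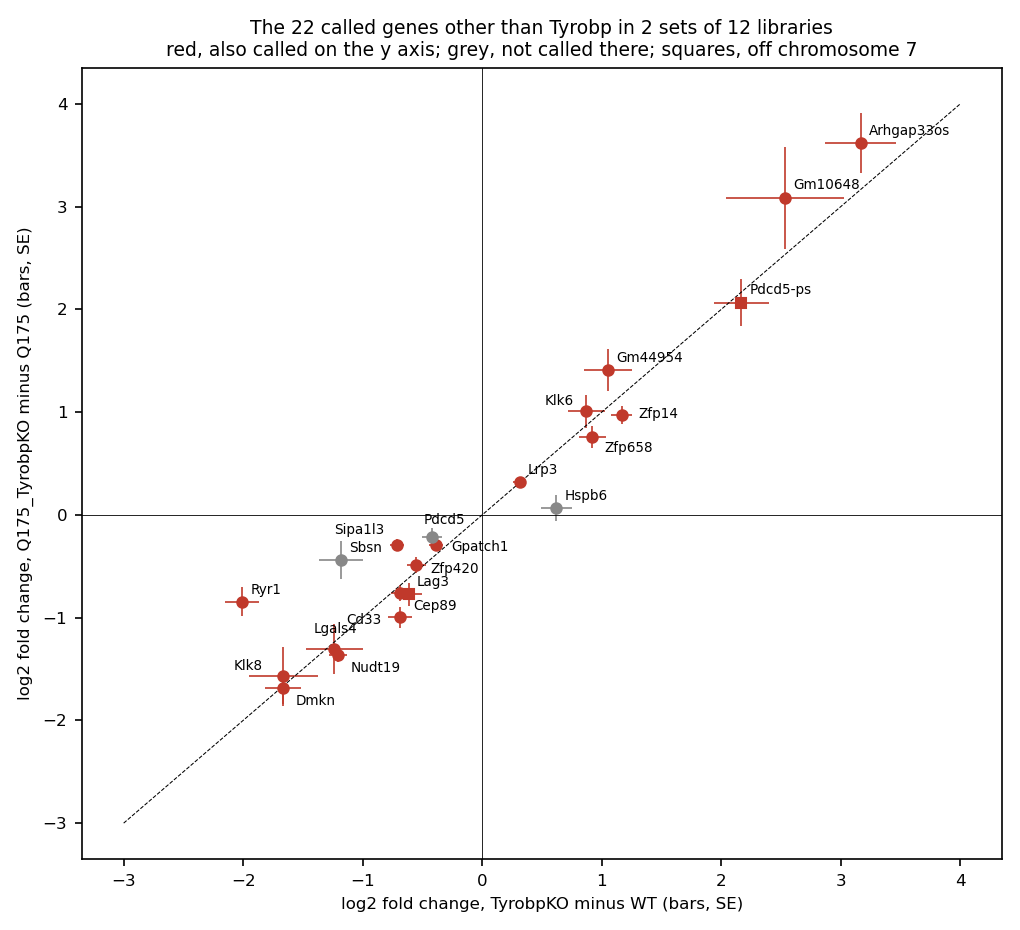
Log2 fold changes of the 22 called genes other than Tyrobp in TyrobpKO minus WT (x axis) and Q175_TyrobpKO minus Q175 (y axis), with bars of 1 SE on both axes, red where also called on the y axis. All 22 lie in the quadrants of equal sign, and Ryr1, Sipa1l3, Sbsn and Hspb6 are among those that lie nearer to 0 on the y axis than on the x axis.

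Genes listed as Tyrobp-associated receptors did not differ detectably one by one. The list also held the adaptor Hcst, and pairing with Tyrobp was not tested for any member. Of 24 listed genes, 9 passed the filter on low counts and 0 were called by edgeR, DESeq2 or limma-voom, with 0 at an unadjusted p under 0.05. Trem2, which binds lipids and lipoproteins, had 14.5, 14.9 and 16.95 CPM in WT and 12.2, 13.55 and 16.1 CPM in TyrobpKO. The ranges overlapped (-0.14 ± 0.09, adjusted p 0.763). In the Q175 background its difference was -0.51 ± 0.09 (adjusted p 0.00426), and the interaction was -0.37 ± 0.13 (unadjusted p 0.00671, adjusted p 0.999). The growth factor receptor Csf1r differed by -0.10 ± 0.06, the integrin chain Itgb2 by -0.16 ± 0.12 and its partner Itgam by 0.00 ± 0.11, a value whose sign changed with the libraries used. Siglech (-0.08), Oscar (-0.21), Clec5a (-0.17), Cd300c2 (-0.15) and Siglec15 (0.95 ± 0.63, at most 0.267 CPM in WT and 0.551 CPM in TyrobpKO) were not called either. The median over the 9 genes was -0.14, beside 0.000895 over all genes. By sex that median was -0.19 in males and -0.04 in females. Summed levels were 151.4 to 160.8 CPM in WT males and 121.3 to 148.2 CPM in TyrobpKO males. Females overlapped, at 138.8 to 162.9 CPM in WT and 146 to 157.9 CPM in TyrobpKO. The TyrobpKO males were also high in cortex markers, and the part of these was not tested. Over all 19667 tested genes, which the counts of each list are to be read against, 1269 (6.45%) had an unadjusted p under 0.05 and 9775 were below 0.

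Genes that act downstream of Tyrobp did not pass the test. Of 29 tested, 0 were called by any of the 3 tools, 3 had an unadjusted p under 0.05 and 19 were below 0, with a median of -0.05. By sex the median was -0.14 in males and 0.03 in females. Summed levels were 621.9 to 647.1 CPM in WT males and 587.2 to 603.3 CPM in TyrobpKO males. Females overlapped, at 604.4 to 615.6 CPM in WT and 604.3 to 630.1 CPM in TyrobpKO. The ubiquitin ligase Cbl, which limits kinase signalling, differed by -0.17 ± 0.06 and the exchange factor Vav3 by -0.33 ± 0.14 (adjusted p 0.749 for both). Syk, the kinase that binds the ITAM, differed by 0.15 ± 0.18 and was named after its value was seen.

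Markers of resting microglia were close to their WT levels. Of the 24 genes of this list, 0 were called by any of the 3 tools, 0 had an unadjusted p under 0.05 and 18 were below 0, with a median of -0.08. Summed over the list, WT libraries had 2276 to 2540 CPM and TyrobpKO libraries 2152 to 2572 CPM, with overlap. Csf1r and Fcrls had means of 98.1 and 20.7 CPM in WT, so the sum rests mostly on other members. Whether the reads of those members came from microglia was not tested. The members of smallest p were the Fc receptor-like gene Fcrls (-0.19 ± 0.10) and Csf1r. The purine receptor P2ry12 differed by -0.01 ± 0.07 and Tmem119 by -0.14 ± 0.12, both named after their values were seen. In bulk tissue, fewer microglia and less of each RNA per microglial cell cannot be told apart.

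Complement and phagocytic genes were mostly below WT, but Cd33 alone was called. Of 26 tested genes, 22 were below 0 and 6 had an unadjusted p under 0.05 (6.45% over all genes), with a median of -0.13. The 3 chains of C1q, the first component of complement, had the same size of difference: C1qa -0.30 ± 0.11, C1qb -0.29 ± 0.08 and C1qc -0.30 ± 0.12. C1qb had 39.2 to 50.5 CPM in WT and 28.8 to 41.2 CPM in TyrobpKO, so the ranges overlapped, and its adjusted p was 0.428. In the Q175 background C1qb differed by -0.39 ± 0.08 (adjusted p 0.0221). The median of this list was -0.24 in males and -0.08 in females. The summed level was 378.1 to 401.4 CPM in WT males and 285.8 to 340.1 CPM in TyrobpKO males. Females overlapped, at 340.9 to 451.2 CPM in WT and 320.9 to 413 CPM in TyrobpKO. The 3 TyrobpKO males and WT replicate 5 were the libraries highest in cortex markers, and the part of these in the difference was not tested.

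Genes of disease-associated microglia, a state named from neurodegeneration models, showed no common direction. Of 31 tested, Lag3 was called lower, 17 were above 0 and 6 had an unadjusted p under 0.05 (6.45% over all genes), with a median of 0.01. Gpnmb, a glycoprotein of lysosome-rich macrophages, had 1.16 ± 0.40 CPM in WT and 1.92 ± 0.54 CPM in TyrobpKO (SD, n = 6) and was not called (0.75 ± 0.25, adjusted p 0.749). Itgax (-1.72 ± 0.66), Clec7a (-1.21 ± 0.54) and Lyz2 (-0.42 ± 0.17) were not called here at adjusted p 0.749, and were called lower in the Q175 background at -2.94 ± 0.57, -3.42 ± 0.51 and -1.30 ± 0.17. These 3 were chosen after their values were seen. The interaction with the Q175 allele was not called for them.

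**Figure D4:**
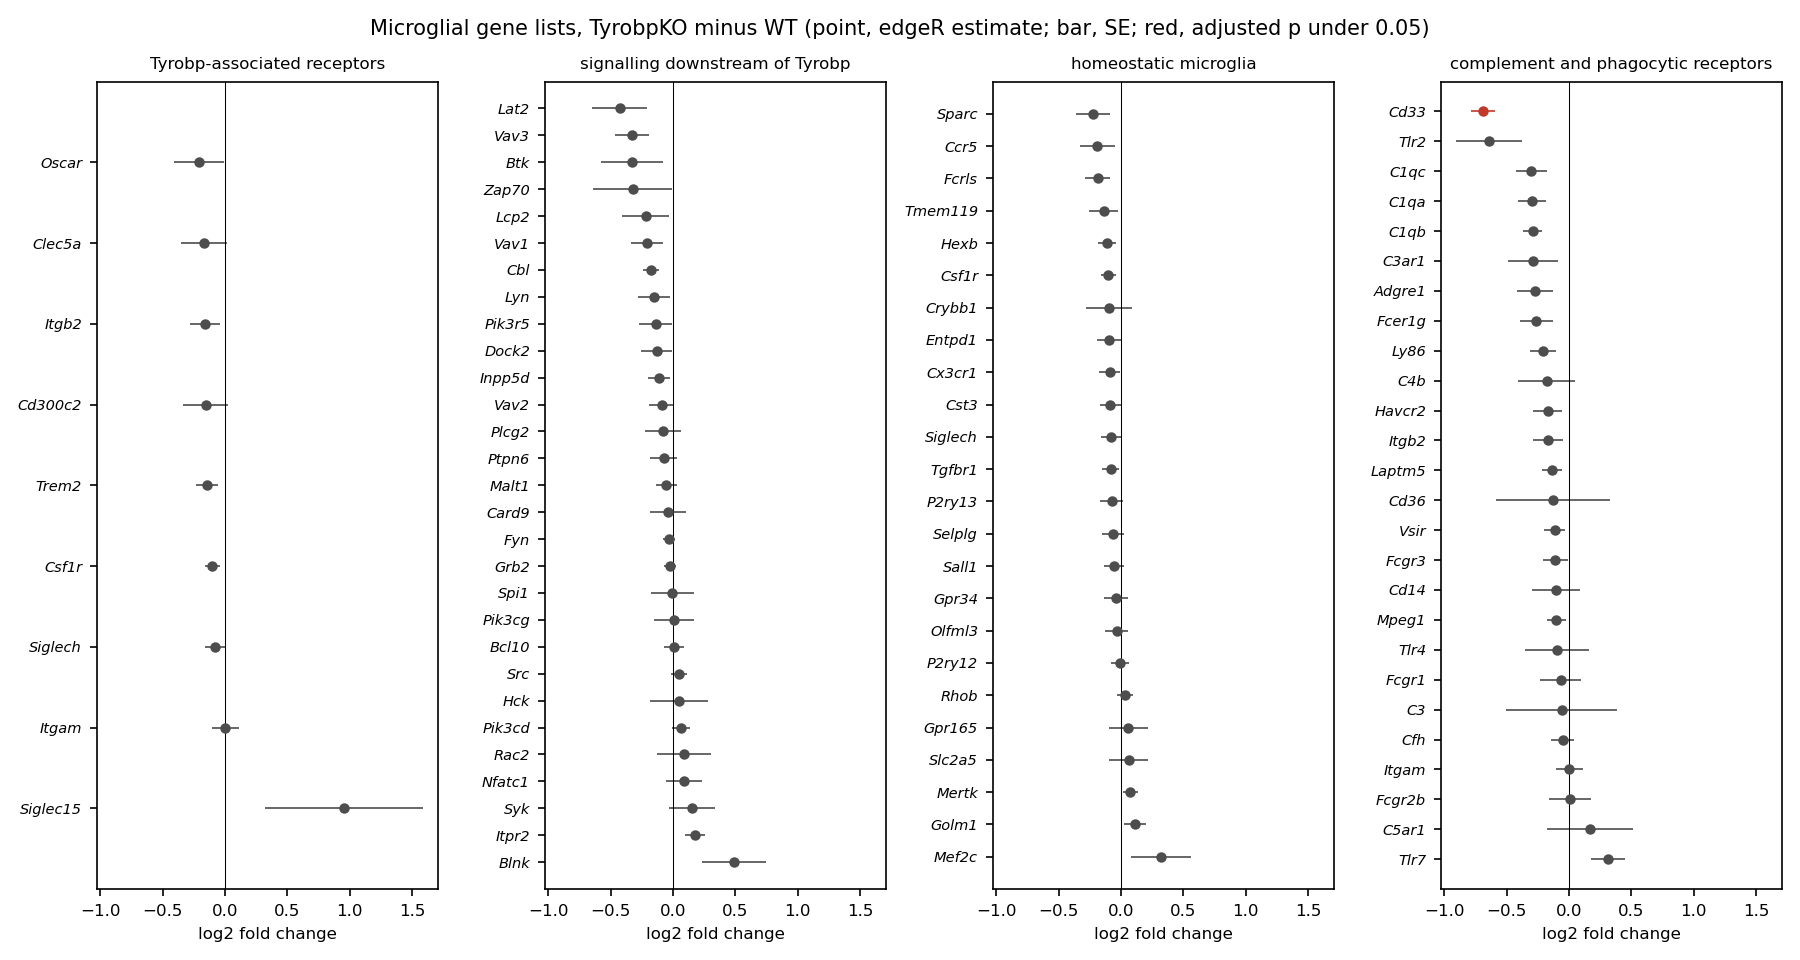
Log2 fold changes of TyrobpKO minus WT (x axis) with bars of 1 SE for the tested members (y axis) of 4 gene lists, red where called. The lists are Tyrobp-associated receptors, signalling downstream of Tyrobp, resting microglia, and complement and phagocytic receptors. In these 4 lists Cd33 is the red point, and 22 of 26 genes in its panel lie below 0.

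Interferon and antigen presentation genes were above 0 in 21 of 25 cases, with a median of 0.13, and 0 were called by any of the 3 tools (1 at an unadjusted p under 0.05). One library set the upper end: TyrobpKO replicate 4 had a summed level of 238.3 CPM, beside 97.4 to 118.3 CPM in the other TyrobpKO libraries and 92.7 to 149 CPM in WT. The members of smallest p were the apoptosis factor Xaf1 (0.29 ± 0.13) and the class I gene H2-T23 (0.38 ± 0.18), both at adjusted p 0.749.

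Genes of striatal projection neurons, the GABAergic output cells of the striatum, all had estimates below 0, and none passed the test over both sexes. Of 25 genes, 25 were below 0 and 10 had an unadjusted p under 0.05 (6.45% over all genes), with a median of -0.28, and 0 were called by edgeR, DESeq2 or limma-voom. The orphan receptor Gpr6 differed by -0.33 ± 0.12 and the dynorphin precursor Pdyn by -0.33 ± 0.13 (adjusted p 0.749 for both). The difference between the sexes was not called by edgeR for any of them. The median was -0.61 in males and 0.02 in females, and summed levels were 19810 to 21200 CPM in WT males and 13150 to 14120 CPM in TyrobpKO males. Females overlapped, at 14010 to 21810 CPM in WT and 15990 to 20690 CPM in TyrobpKO. In the fit of males alone, 25 of 25 genes were below 0 and 1 of them, Bcl11b, was called, beside 65 of all 19868 genes tested there. In the fit of females alone, 9 of 25 genes were below 0.

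Markers of cortex had a median above 0, and none passed the test. Of 14 tested cortex genes, 12 were above 0 and 0 were called by any of the 3 tools, with a median of 0.66, or 1.09 in males and 0.11 in females. Summed levels were 455.1 to 766.8 CPM in WT males and 1005 to 1267 CPM in TyrobpKO males, and among females 298.1 to 1026 CPM in WT and 667.4 to 828.9 CPM in TyrobpKO. The glutamate transporter Slc17a7 and the transcription factors Tbr1 and Neurod6 of cortical excitatory neurons were detected in every group. With the summed cortex level as a covariate, the median of the projection neuron genes was -0.11 and 25 of 25 were still below 0. Without the 4 libraries highest in cortex markers it was -0.14. Both settings were chosen after the data were seen. The part of cortex tissue in the difference was not tested.

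**Figure D5:**
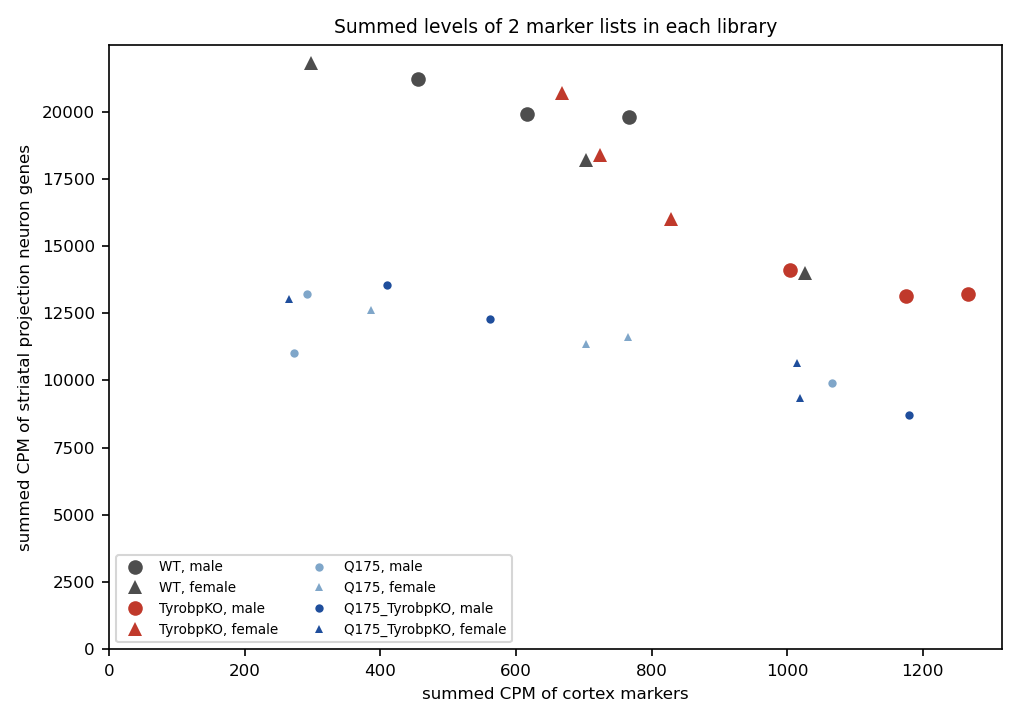
Summed CPM of striatal projection neuron genes (y axis) against summed CPM of cortex markers (x axis), 1 point per library, both axes from 0, with larger points for WT and TyrobpKO. The 3 TyrobpKO males and WT replicate 5 lie at the right, at 1005 to 1267 CPM of cortex markers and 13150 to 14120 CPM of projection neuron genes.

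In the fit of genotype by sex, 46 genes (0.234%) were called in males and 9 (0.0458%) in females, of them 14 (3.02%) and 7 (1.51%) near Tyrobp. Of the 22 called genes other than Tyrobp, all had the same sign in both sexes, 14 were called in males and 8 in females. Nudt19 was at -1.13 ± 0.09 in males and -1.29 ± 0.09 in females. Most of the further calls in males lay off chromosome 7, with 30 there in males (0.166%) and 1 in females (0.00553%). The test of the difference between sexes called 0 of 19667 genes (0%) in edgeR, with 1558 at an unadjusted p under 0.05, and 33 in DESeq2. In males the cortex and projection neuron markers also differed between genotypes without overlap, and their part in these calls was not tested.

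Ryr1 was the only called member of the calcium release and store genes, 1 of 24 tested (adjusted p 6.64e-09), beside 0.117% over all genes. It is 1 of 2 tested list members that lie within 15 Mb of Tyrobp. An unadjusted p under 0.05 was found for 5 of the 24 (6.45% over all genes). The store protein Casq2 had 6.36 to 9.61 CPM in WT and 3.99 to 6.35 CPM in TyrobpKO, did not overlap and was not called (-0.55 ± 0.15, adjusted p 0.457). The inositol trisphosphate receptor Itpr1 (-0.19 ± 0.07) and the brain ryanodine receptor Ryr3 (-0.34 ± 0.16) were not called and are named after their values were seen. Ryr2, the cardiac type and also a neuronal one, differed by 0.19 ± 0.15. The median of the list was -0.02.

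Other cell types differed little. Myelin genes were above 0 in 19 of 20 cases with a median of 0.13, led by Ermn (0.20 ± 0.11) and Opalin (0.19 ± 0.11), and 0 were called. Astrocyte genes had a median of 0.03, with Ggta1 at -0.39 ± 0.14 and the small heat shock gene Hspb1 at -0.42 ± 0.20, and 0 of 23 were called. Interneuron genes had a median of -0.13, with Npy at 0.25 ± 0.14 and the vesicular acetylcholine transporter Slc18a3 at -0.31 ± 0.17. Endothelial genes had a median of 0.02, and immediate early genes, which follow neuronal activity, had -0.38 in males and 0.30 in females, with Npas4 at -0.61 ± 0.26 and Homer1 at -0.21 ± 0.10 over both. None of the 3 tools called any member of these lists over both sexes. The fit of males alone called Trf of the myelin list. At an unadjusted p under 0.05 were 0 myelin, 2 astrocyte, 0 interneuron, 0 endothelial and 2 immediate early genes.

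Markers of tissue next to the striatum and of blood were not called by any of the 3 tools either, with 0 at an unadjusted p under 0.05. Choroid plexus genes had a median of 0.03 over 15 genes, or 0.41 in males and -0.38 in females. The chloride channel protein Clic6 was at -0.42 ± 0.44 and the collagen Col8a1 at 0.66 ± 0.91. Genes of thalamus, septum and pallidum had a median of -0.05 over 15 genes, with the transcription factors Gbx1 at -0.73 ± 0.42 and Nkx2-1 at -0.45 ± 0.27. Only 5 of 18 blood and leukocyte genes passed the filter, among them the coreceptor Cd4 (-0.28 ± 0.18) and the haemoglobin gene Hbb-bs (-0.62 ± 0.63), whose signs changed with the libraries used. In the endothelial list the genes of smallest p were the tight junction gene Cldn5 (-0.24 ± 0.15) and the adhesion gene Esam (0.14 ± 0.09). In the cortex list they were Nrn1 (0.72 ± 0.51) and Fezf2 (0.60 ± 0.45), the latter at -0.03 with the cortex covariate.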

How the data were processed

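Read counts per gene were deposited by the authors as 1 table of whole numbers for all 24 libraries. The submitters' processing notes name STAR, featureCounts and DESeq2 without versions, and the build GRCh38, a human one. Of the 54532 mouse identifiers in the table, 54495 are in GENCODE M21 (GRCm38), all on the same chromosome there, and 53585 (98.3%) have the same start and end, so positions are given as GRCm38. The sources used here do not give the use of strand, the treatment of reads with several matches, or filters.

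edgeR 4.0.16 (R 4.3.3) was run on the counts of all 24 libraries, with TMM scaling and filterByExpr. The model held 1 mean for each genotype plus sex. Benjamini-Hochberg adjustment was over the 19667 genes tested. Errors are standard errors from the test statistic. DESeq2 1.42.0 and limma-voom (limma 3.58.1) were alternatives. The edgeR script was tested on simulated data. BLAST 2.17.0 and Biopython 1.88 compared GENCODE transcripts of called genes, at 95% identity or more over at least 300 bases or 80% of a transcript. Libraries are taken as 1 animal each, and p-values measure the spread between them. Within groups no pair of libraries agreed within sampling noise (mean chi-square per gene 6.89 to 42.6). Precision is limited by depth only for the lowest genes: 3 counts correspond to 0.0875 to 0.116 CPM per library in the 12 libraries compared, for counting error only.

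Genes named are Tyrobp, Hcst, all called genes and the 5 of smallest p in each direction off chromosome 7. To these were added the 5 on chromosome 7 beyond 15 Mb, the listed Tyrobp-associated receptors, and 2 members of smallest p per list. Neighbours by position, genes next to the threshold and further list members were added after values were seen. The members, window and lists were chosen with earlier results of these data known.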

Additional observations from a re-analysis of the deposited data

Results flagged for a closer look

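Within the 6 libraries of a genotype, 16 sets of values, or 8.79% of those examined, had 1 library far from the others by Dixon's gap over range. Chance flags about 5% of such sets. In TyrobpKO, the highest library stood apart for Klk8 (replicate 5, 0.771 CPM; others up to 0.438), Hspb6 (replicate 5, 6.98; others up to 5.34), C230014O12Rik (replicate 6, 3.35; others up to 2.45), Gm10603 (replicate 2, 2.496; others up to 1.75) and Itgb2 (replicate 5, 8.37; others up to 6.68). The lowest stood apart for Npy (replicate 6, 19.8 CPM; others from 28.1) and Clec5a (replicate 2, 1.21; others from 1.998). In WT, the highest stood apart for Xaf1 (replicate 6, 12.7 CPM; others up to 9.17), the haemoglobin gene Hbb-bs (replicate 4, 3.81; others up to 1.21) and Itgam (replicate 4, 9.72; others up to 7.92). The lowest stood apart for Csf1r (replicate 5, 84.0 CPM; others from 97.4) and Cd4 (replicate 5, 52.3; others from 76.3).

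Summed levels of 4 lists had such a library. These were the interferon genes in TyrobpKO replicate 4 (238.3 CPM; others up to 118.3), resting microglia in WT replicate 6 (2540 CPM; others up to 2359), interneurons in TyrobpKO replicate 6 (422.7 CPM; others from 481.6) and blood genes in WT replicate 5 (54.1 CPM; others from 78.8). Cd4 alone made 52.3 CPM of the blood sum in WT replicate 5, so that flag repeats the one for Cd4. WT replicate 5 also had the highest cortex level of the WT group, at 1026 CPM.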

How the results depend on the processing

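Of 23 genes called in TyrobpKO against WT, 13 were called in males alone, 8 in females alone and 10 without the 4 libraries highest in cortex markers. In these settings the counts were 65, 8 and 10 over all genes, 12, 7 and 8 near Tyrobp, and 50, 0 and 1 off chromosome 7. On chromosome 7 beyond the window they were 2, 0 and 0. Leaving out 1 library gave 18 to 23, 15 to 20 and 2 to 4 calls, with the 4 off chromosome 7 without TyrobpKO replicate 4. DESeq2 called 4 off chromosome 7. Fitting only the 12 libraries called 16 in all, 14 near Tyrobp and 1 off chromosome 7, without Pdcd5, Lag3, Sbsn, Hspb6, Gm44954, Lgals4 and Klk8. Q175_TyrobpKO against Q175 gave 31, 52 with DESeq2 and 11 in either sex. The difference between sexes gave 0, 33 with DESeq2, 4 without the filter, 1 from the 12 libraries, 1 with cortex as covariate, and 0 to 2 without 1 library (1 without WT replicate 4, 2 without TyrobpKO replicate 4). The Q175 interaction gave 0, 2 with DESeq2, and 0 to 2 without 1 library (2 without WT replicate 5, 1 without TyrobpKO replicate 6). The cause of these shifts was not tested.

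Nudt19, Zfp14, Sipa1l3, Ryr1, Dmkn, Arhgap33os and Tyrobp were called in every setting run. Lag3 was not called from the 12 libraries, in either sex alone or without the cortex-high libraries, Cd33 not in females alone or without the cortex-high libraries, and Pdcd5-ps not in females alone (adjusted p 0.0601). Klk6, Lrp3 and Gpatch1 were not called in either sex alone or without the cortex-high libraries. Zfp420 was not called in females alone or without the cortex-high libraries, Cep89 not in females alone and Zfp658 not in males alone. No called gene changed sign. Signs reversed for some genes that were not called: Fezf2 with cortex as covariate (-0.0323), Cd4 in females (0.0807), Hbb-bs in males (0.656), and Itgam in males (-0.106) and without the cortex-high libraries (-0.0534). Without 1 library Hbb-bs ranged from -0.868 to 0.0414 (above 0 without WT replicate 4), Cd300c2 from -0.26 to 0.023 (above 0 without WT replicate 6) and Itgam from -0.0526 to 0.0269 (below 0 without WT replicate 5 or 6 or TyrobpKO replicate 3, 4 or 5). The cortex settings were chosen after the data were seen. No paired analysis was possible because the labels' animal numbers only name animals and pair none across genotypes.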
